A study of Homo sapiens with 8 samples.

Results

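The comparison set 2 SNORA13 knockout (KO) clones, numbered 66 and 69, against 2 wild-type (WT) clones, numbered 15 and 54, all sampled after 7 days with (Z)-4-hydroxytamoxifen (4-OHT) at 100 nM. All 4 are clones of BJ-HRAS cells, a derivative of the BJ skin fibroblast line, and their libraries are 4 of the 8 in the series. The other 4 hold the same KO and WT clones without 4-OHT. The labels give the 7 days only for the libraries with 4-OHT, so that in each comparison with against without it the agent and any difference in time in culture cannot be told apart. The 4 libraries were chosen by their labels alone, but the gene lists were chosen with earlier results of these data known. Of the 58825 genes in the table, 16542 passed the filter on low values and were tested. Each clone is a line of its own, so that a KO minus WT difference includes whatever else sets these 4 lines apart. The labels do not describe the HRAS construct, its promoter or how SNORA13 was knocked out.

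SNORA13 belongs to the H/ACA class of small nucleolar RNAs (snoRNAs), noncoding RNAs that guide the conversion of uridine to pseudouridine in ribosomal and spliceosomal RNA. In lines that carry oncogenic HRAS fused to a hormone receptor domain, 4-OHT switches the fusion protein on. Sustained RAS activity drives fibroblasts into senescence, a lasting arrest held by the p53 and RB pathways and accompanied by secreted cytokines and proteases (the senescence-associated secretory phenotype, SASP). Ribosome assembly is tied to p53, because the free 5S particle, made of 5S rRNA with RPL5 and RPL11, binds the p53 ligase MDM2. The comparison therefore asks what the RNA of SNORA13 knockout cells looks like with 4-OHT. Activity of RAS itself was not measured.

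SNORA13 lies on the plus strand of chromosome 5 (GRCh38, chr5:112161485-112161617), within the noncoding host transcript EPB41L4A-AS1. Its sequence is shown because it is the RNA named in the knockout, with the ACA box, which defines the class and lies 3 bases before the 3′ end, in capitals.
SNORA13: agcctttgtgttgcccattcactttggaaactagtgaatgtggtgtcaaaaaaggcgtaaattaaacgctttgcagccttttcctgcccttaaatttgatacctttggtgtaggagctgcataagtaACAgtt

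SNORA13 was read first, as a check of the genotype. It had 0 and 0 reads in KO clones 66 and 69 and 5 and 7 reads in WT clones 15 and 54. Against a floor of 3 reads per KO library it was at least 1.94-fold lower in KO, a bound that covers counting error only. The host transcript EPB41L4A-AS1 measured 2.38 and 2.09 RPKM in the KO clones, against 1.96 and 1.87 RPKM in the WT clones (log2 difference 0.21 ± 0.12, adjusted p = 0.298) and was not called with 4-OHT. Without 4-OHT it was called higher, at 6.78 and 7.63 RPKM in KO, against 4.28 and 4.06 RPKM in WT (log2 difference 0.77 ± 0.12, adjusted p = 0.0184). Values of the 2 genotypes are given throughout in the order clone 66 and clone 69, then clone 15 and clone 54. The unit is RPKM, read density over the transcript adjusted for library depth. A gene is called higher or lower when limma's adjusted p for KO minus WT is under 0.05, and errors of log2 differences are standard errors (n = 2 clones per group).

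The 4 libraries held 23.0 to 24.9 M reads. Over all tested genes the KO clones correlated at r = 0.9919 and the WT clones at 0.9888, while KO to WT pairs lay between 0.9756 and 0.9818. The first principal component held 63.9% of the variance and separated KO from WT. The next component (20.9%) separated the WT clones, at 23.0 in clone 15 and −27.8 in clone 54. RNA of the signal recognition particle took 16.6% and 15.3% of the reads in KO, against 10.2% and 16.0% in WT, so that WT clone 15 stood apart from the other 3. Scaling with these RNAs left out called 1171 genes higher and 1164 lower. Fibroblast markers passed the filter in 13 of 13 cases, at summed levels of 3650 and 3320 RPKM in KO, against 3290 and 3720 RPKM in WT. Of these, 3 were called higher (23.1%, against 6.70% of all tested genes) and 0 lower, with a median log2 difference of 0.28. Of markers of other cell types, 3 of 6 endothelial, 3 of 6 immune and 1 of 6 melanocyte or neural genes passed the filter and none was called. A filter of 50 reads, limma-voom and the fit without WT clone 54 each called 1 of the immune genes lower. Endothelial genes summed to 0.464 and 0.706 RPKM in KO, against 0.221 and 0.492 RPKM in WT. Immune genes summed to 8.82 and 10.4 RPKM in KO, against 15.3 and 12.1 RPKM in WT. The melanocyte or neural gene had 0.187 and 0.158 RPKM in KO, against 0.165 and 0.0754 RPKM in WT. The immune sum was mostly CD14, a receptor that fibroblasts can also express, at 7.61 and 9.19 RPKM in KO, against 13.7 and 10.6 RPKM in WT (log2 difference −0.52, adjusted p = 0.0534). Of 8 epithelial genes 3 passed, summing to 265 and 275 RPKM in KO, against 281 and 294 RPKM in WT, and 1, the keratin gene KRT8, was called higher (7.11 and 8.96 RPKM in KO, against 4.67 and 6.10 RPKM in WT; log2 difference 0.57, adjusted p = 0.049). That call was at the threshold and ended under 5 of 10 other settings that kept all 8 libraries (adjusted p 0.0507 to 0.141) and with the 4 libraries with 4-OHT fitted alone (0.0859).

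Cells without SNORA13 differed from WT in 2375 of the 16542 genes tested with 4-OHT (14.4%). Of these, 1109 were higher in KO (6.70%) and 1266 lower (7.65%). The differences were moderate: the median called gene was 1.71-fold higher or 1.47-fold lower, 320 genes were at least 2-fold higher and 226 at least 2-fold lower. At 4-fold, 26 genes were higher and 40 lower. The median over all genes was −0.006 on the log2 scale, with the 5th percentile at −0.68 and the 95th at 0.80. Replication-dependent histones and genes of DNA replication and mitosis were on the higher side, and p53 targets, NF-kB genes, contractile genes and lysosomal genes were mostly on the lower side. With 2 clones per group the counts depend on each library. Without KO clone 66 the fit called 328 genes higher and 524 lower, without KO clone 69 it called 63 and 105, without WT clone 15 it called 186 and 172, and without WT clone 54 it called 789 and 569. All 140 called genes named here kept their sign in each of these fits, and 42 of them kept their call in all 4. Below, a library left out is always 1 of these 4, counts are given in this order, and a gene is said to be stable to each omission when its call held in all 4 fits. Where KO and WT values do not overlap, leaving out 1 clone can hardly reverse the sign, so a kept sign adds no support. Counts of list members called are to be read against the 6.70% of all tested genes called higher and the 7.65% called lower.

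**Figure D1:**
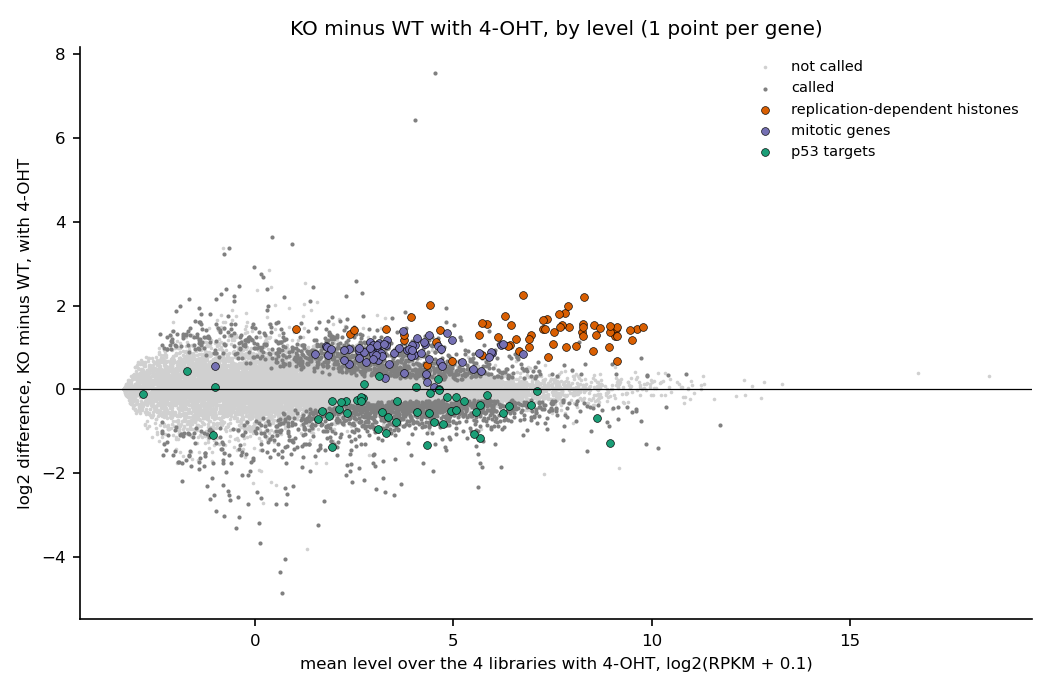
Mean level with 4-OHT (x axis, log2 scale) against the log2 difference KO minus WT (y axis), 1 point per tested gene, without genes of the Y chromosome and XIST. Replication-dependent histones (orange) lie above 0 at high levels, mitotic genes (purple) lie above 0 at lower levels, and most p53 targets (green) lie below 0.

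Genes of the cell division machinery were higher in KO clones with 4-OHT. Of 71 mitotic genes tested, 55 were called higher and 0 lower, with a median log2 difference of 0.90, where 6.70% of all tested genes were called higher. Of 56 DNA replication genes, 44 were higher and 0 lower (median 0.87), and of 36 genes of recombination and checkpoints 22 were higher and 0 lower (median 0.77). The geometric mean level of the mitotic genes was 16.5 and 16.9 RPKM in KO, against 8.17 and 10.3 RPKM in WT. In bulk RNA, more dividing cells and more of these messages per cell cannot be told apart.

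Among the mitotic genes, the proliferation marker MKI67 measured 13.98 and 13.8 RPKM in the KO clones, against 5.80 and 6.24 RPKM in the WT clones (log2 difference 1.19 ± 0.15, adjusted p = 0.00705). The spindle pole gene ASPM had 11.6 and 12.1 RPKM in KO, against 5.28 and 5.67 RPKM in WT (log2 difference 1.10 ± 0.10, adjusted p = 0.00375). KIF20A, a kinesin of cytokinesis, had 24.6 and 22.6 RPKM in KO, against 9.22 and 10.8 RPKM in WT (log2 difference 1.23 ± 0.14, adjusted p = 0.00555). Both KO values lay above both WT values for each of these genes, as they did in 30.1% of all tested genes. The condensin subunit SMC4 was 2.26-fold higher (adjusted p = 0.00394), cyclin A2 (CCNA2) 2.55-fold (adjusted p = 0.00878) and the mitotic kinase CDK1 1.78-fold (adjusted p = 0.0121). The remaining 16 mitotic genes had positive estimates without a call, and the range over all 71 was 0.07 to 1.39.

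DNA replication genes were higher by similar amounts. RFC3, a subunit of the clamp loader that places the replication clamp on DNA, measured 9.51 and 11.8 RPKM in KO, against 4.54 and 4.96 RPKM in WT (log2 difference 1.14 ± 0.13, adjusted p = 0.00501). RFC4, another subunit of that loader, had 10.2 and 14.2 RPKM in KO, against 4.12 and 4.84 RPKM in WT (log2 difference 1.41 ± 0.19, adjusted p = 0.00798). The fork protection gene TIMELESS had 4.01 and 4.40 RPKM in KO, against 1.80 and 2.05 RPKM in WT (log2 difference 1.09 ± 0.15, adjusted p = 0.00744). In each of the 3 genes the lower KO clone was above the higher WT clone, the order that 30.1% of all tested genes had. ASF1B, a chaperone that hands histones to new chromatin, was 2.60-fold higher (adjusted p = 0.00887), and RRM2, the regulated subunit of ribonucleotide reductase, 2.37-fold higher (adjusted p = 0.00904).

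Among recombination and checkpoint genes, MND1, a factor of strand exchange, had 4.30 and 4.69 RPKM in KO, against 1.27 and 1.55 RPKM in WT (log2 difference 1.61 ± 0.21, adjusted p = 0.0072). XRCC3, a factor of homologous recombination, had 10.1 and 11.2 RPKM in KO, against 3.15 and 4.62 RPKM in WT (log2 difference 1.45 ± 0.19, adjusted p = 0.00724). The histone variant H2AFX, phosphorylated at DNA breaks, was 1.93-fold higher (adjusted p = 0.00847).

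Among the regulators of the cycle, 7 of 17 genes of the E2F and RB family were higher and 0 lower, with a median of 0.40. E2F1, an activator of S-phase genes, had 9.67 and 9.91 RPKM in KO, against 4.59 and 6.84 RPKM in WT (log2 difference 0.79 ± 0.21, adjusted p = 0.0463). The RB relative RBL1 had 4.89 and 5.26 RPKM in KO, against 2.88 and 3.35 RPKM in WT (log2 difference 0.69 ± 0.13, adjusted p = 0.0187). The E2F1 call was near the threshold: it ended with no filter on low values (adjusted p = 0.135) and without trend and robust moderation (0.0795).

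Cyclins and kinases split: 10 of 19 were higher and 2 lower. Cyclin D1 (CCND1), which RAS signalling induces, was among the lower genes at 623 and 567 RPKM in KO, against 838 and 878 RPKM in WT (log2 difference −0.53, adjusted p = 0.0323). Its call ended with any single library left out, with no filter (adjusted p = 0.0871) and without moderation (0.0699). Of 7 inhibitors of cyclin-dependent kinases, 2 were higher and 1 lower. CDKN2C (p18) had 7.995 and 8.14 RPKM in KO, against 2.53 and 3.86 RPKM in WT (adjusted p = 0.0072). Both KO clones were above both WT clones, as in 30.1% of all tested genes. CDKN3, a phosphatase that acts on cyclin-dependent kinases, had 25.01 and 27.1 RPKM in KO, against 14.4 and 16.6 RPKM in WT (adjusted p = 0.00724). CDKN2B (p15) measured 12.7 and 13.5 RPKM in KO, against 15.5 and 11.7 RPKM in WT (log2 difference −0.04, adjusted p = 0.94), with the KO clones between the WT clones. CDKN2A, the source of p16, had 0 reads in all libraries, and the inhibitor that was lower, CDKN1A (p21), is described with the p53 targets.

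Lamins and high-mobility-group (HMG) proteins, several of which are known to decline in senescent fibroblasts, were higher in 13 of 24 cases and lower in 1. Their geometric mean with 4-OHT was 21.0 and 21.9 RPKM in KO, against 14.2 and 15.9 RPKM in WT. Without 4-OHT it was 10.6 and 10.6 RPKM in KO, against 12.6 and 15.1 RPKM in WT. The WT mean was thus not lower with 4-OHT than without it. Without 4-OHT 7 members were called lower in KO and 0 higher. LMNB1 (lamin B1) measured 19.5 and 20.7 RPKM in the KO clones, against 5.92 and 8.87 RPKM in the WT clones (log2 difference 1.46 ± 0.20, adjusted p = 0.00794). HMGB2 had 37.7 and 45.9 RPKM in KO, against 16.2 and 20.4 RPKM in WT (log2 difference 1.19 ± 0.18, adjusted p = 0.00904). HMGB1 was 1.74-fold higher (adjusted p = 0.00404) and HMGN2 1.79-fold higher (adjusted p = 0.00441). The lower member was HMGA2, a component of senescence-associated heterochromatin, at 70.1 and 60.03 RPKM in KO, against 96.0 and 126 RPKM in WT (log2 difference −0.76 ± 0.17, adjusted p = 0.0267). The HMGA2 call ended with any single library left out, with no filter (adjusted p = 0.0855) and without moderation (0.0591).

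Nuclear pore and transport genes were higher in 10 of 31 cases. RCC1, the exchange factor of the RAN transport GTPase, had 23.9 and 26.1 RPKM in KO, against 13.1 and 15.2 RPKM in WT (adjusted p = 0.00585). Nucleotide synthesis genes were higher in 10 of 30 cases and lower in 1. The phosphoribosyl pyrophosphate synthetase PRPS2 had 15.7 and 16.7 RPKM in KO, against 7.55 and 9.16 RPKM in WT (log2 difference 0.95 ± 0.10, adjusted p = 0.0047).

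The number of division genes called rests on all 4 libraries. With 1 library left out, the mitotic genes called higher numbered 17, 3, 8 and 46, with medians of 0.89, 0.87, 0.73 and 1.08. DNA replication gave 13, 1, 5 and 41 calls, with medians of 0.89, 0.88, 0.69 and 1.08. Both medians stayed positive, and both were larger against WT clone 15 alone than against WT clone 54 alone. The calls numbered 7, 0, 2 and 16 for recombination, 0, 0, 0 and 6 for the E2F and RB family and 4, 0, 1 and 8 for cyclins and kinases. They numbered 5, 3, 4 and 11 for lamins and HMG proteins, 4, 1, 3 and 8 for nucleotide synthesis and 2, 0, 1 and 6 for nuclear pores. Of the genes named above, ASPM, KIF20A, SMC4, RFC3, HMGB1, HMGN2 and PRPS2 were stable to each omission.

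**Figure D2:**
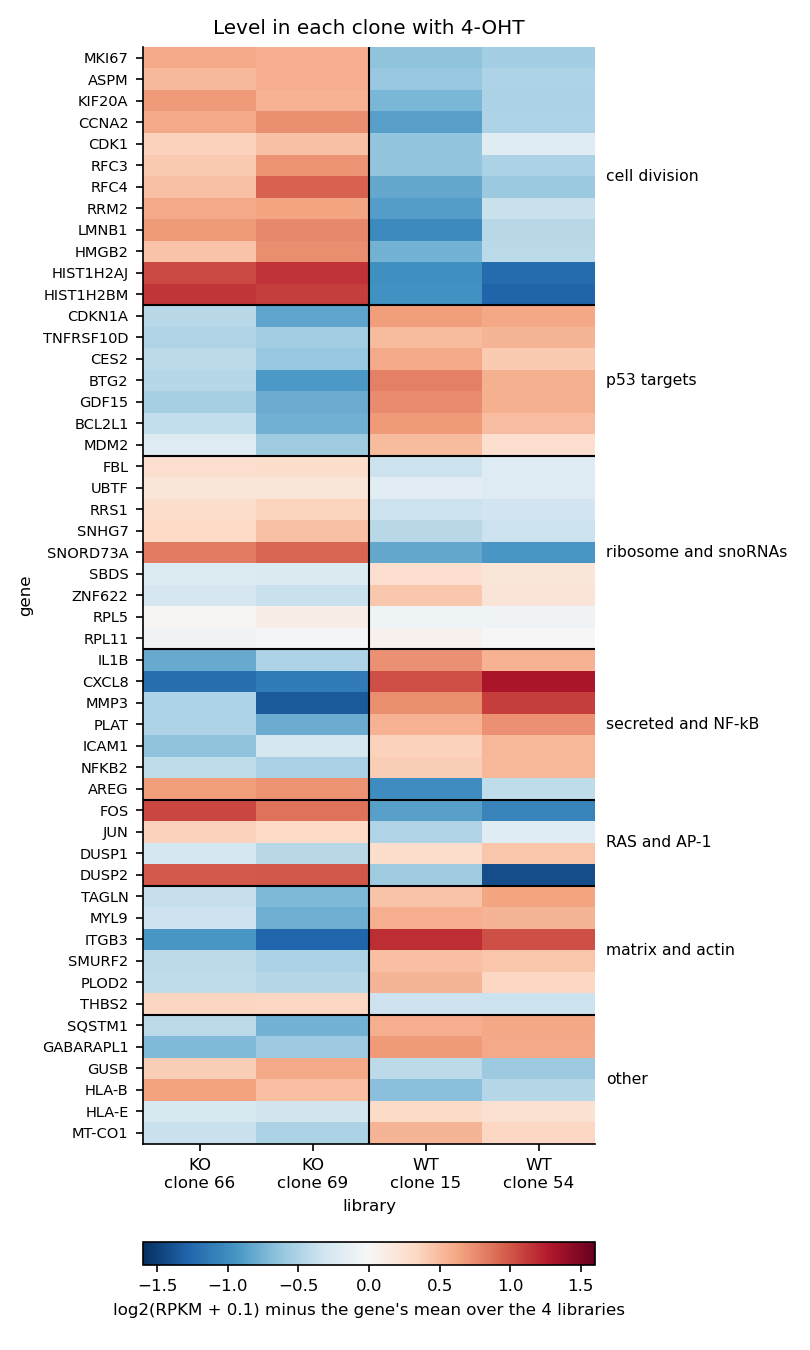
Level of named genes in each clone with 4-OHT, as log2(RPKM + 0.1) minus the gene's mean over the 4 libraries (colour), KO clones left and WT clones right. The division genes are above their mean in both KO clones and below it in both WT clones, and the p53 targets show the opposite.

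Histone genes transcribed in S phase were higher in KO almost without exception. Of 63 tested, 62 were called higher in KO and 0 lower, with a median log2 difference of 1.41 and a range of 0.58 to 2.25. Their geometric mean level was 175 and 184 RPKM in KO, against 58.0 and 84.2 RPKM in WT. HIST1H2AJ measured 498 and 535 RPKM in the KO clones, against 121 and 103 RPKM in the WT clones (log2 difference 2.21 ± 0.10, adjusted p = 0.000417). HIST1H2BM had 179.7 and 176 RPKM in KO, against 41.6 and 33.5 RPKM in WT (log2 difference 2.25 ± 0.19, adjusted p = 0.00282). The 2 genotypes were far apart in both. The linker histone HIST1H1A had 89.8 and 81.8 RPKM in KO, against 27.4 and 31.3 RPKM in WT (log2 difference 1.55 ± 0.09, adjusted p = 0.00142). HIST2H2BF, a core H2B gene, had 293 and 309 RPKM in KO, against 92.9 and 126 RPKM in WT (log2 difference 1.48 ± 0.14, adjusted p = 0.00375). These messages end in a stem-loop in place of a poly(A) tail, which a total RNA library keeps. Copies of a histone gene are nearly identical, so how reads were divided among them is uncertain. With 1 library left out, 41, 12, 39 and 60 were called higher, with medians of 1.45, 1.34, 1.11 and 1.65, and the 4 genes given here were stable to each omission.

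Promoters of 3 genes from these groups are shown as examples of 3 control elements known from cell cycle genes, which the groups share in part. Each window runs from 150 bases before the annotated start to 50 after it (RefSeq, GRCh38.p14), 5′ to 3′ on the gene's strand, with the element in capitals. ASPM (chr1:197146620-197146819, minus strand) carries the cell cycle homology region (CHR), searched as TTTGAA or TTCGAA. RFC4 (chr3:186806433-186806632, minus strand) carries the E2F element, searched as GGCGGGAA or GGCGCGAA. HIST1H2BM (chr6:27814872-27815071, plus strand) carries the octamer ATTTGCAT of H2B genes. All letters were searched on both strands.
ASPM: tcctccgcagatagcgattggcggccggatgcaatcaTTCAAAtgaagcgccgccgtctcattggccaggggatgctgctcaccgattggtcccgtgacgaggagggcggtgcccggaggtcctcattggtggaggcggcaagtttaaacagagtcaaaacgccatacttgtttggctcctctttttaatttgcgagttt
RFC4: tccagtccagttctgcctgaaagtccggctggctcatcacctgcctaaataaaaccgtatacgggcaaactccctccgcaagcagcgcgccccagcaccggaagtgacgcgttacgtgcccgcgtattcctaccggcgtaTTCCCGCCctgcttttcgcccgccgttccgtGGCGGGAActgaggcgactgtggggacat
HIST1H2BM: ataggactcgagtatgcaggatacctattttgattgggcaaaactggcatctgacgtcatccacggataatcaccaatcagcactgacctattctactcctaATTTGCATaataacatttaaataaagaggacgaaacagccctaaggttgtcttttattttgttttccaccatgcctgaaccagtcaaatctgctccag

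Promoters from 250 bases before to 50 after the start were found in RefSeq for 11063 of the 16542 tested genes. The CHR letters were in 11.5% of them, in 21.2% of promoters of genes called higher in KO and in 10.5% of those called lower. They were in 46 of 62 mitotic promoters (74.2%), 3 of 46 DNA replication promoters (6.52%) and 34.0% of the 53 histone promoters. The E2F letters were in 6.72% of all promoters, 12.3% of those of genes called higher and 4.4% of those called lower. By list they were in 12.9% of mitotic promoters, 32.6% of DNA replication ones and 35.8% of histone ones. The octamer was in 1.43% of all and 13 of 17 H2B promoters (76.5%). CCAAT, the NF-Y element, was in 36.5% of all promoters, 45.8% of those of genes called higher and 33.7% of those called lower. By list it was in 74.2% of mitotic, 58.7% of DNA replication, 83.0% of histone and 100% of H2B promoters. Of the 39 promoters of p53 targets, 7.69% held the CHR letters, 15.4% E2F, 43.6% CCAAT and 2.56% the octamer. The E2F share was thus higher there than in mitotic promoters. A match of letters describes the window and does not show that a factor binds there.

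Targets of p53 were lower in KO clones. Of 51 tested, 22 were called lower and 0 higher, where 7.65% of all genes were lower. The median log2 difference was −0.39, and 44 of 51 estimates were negative. CDKN1A, which encodes the kinase inhibitor p21 that holds the p53 arrest, measured 332 and 251 RPKM in the KO clones, against 714 and 690.1 RPKM in the WT clones (log2 difference −1.28 ± 0.15, adjusted p = 0.00555). Both KO values of CDKN1A lay far below both WT values. Over all tested genes, 31.2% had both KO values below both WT values.

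Other p53 targets on the lower side covered death receptors, survival factors and feedback. The decoy receptor TNFRSF10D had 30.6 and 29.02 RPKM in KO, against 60.8 and 62.6 RPKM in WT (log2 difference −1.05 ± 0.07, adjusted p = 0.0019). The death receptor FAS had 5.90 and 5.57 RPKM in KO, against 12.2 and 10.2 RPKM in WT (log2 difference −0.95 ± 0.15, adjusted p = 0.0101). MDM2, the ubiquitin ligase that degrades p53, had 19.0 and 14.7 RPKM in KO, against 31.2 and 26.3 RPKM in WT (log2 difference −0.77 ± 0.14, adjusted p = 0.0164). The genotypes did not overlap in these 3 genes, as in the 31.2% of all tested genes with both KO values lower. BCL2L1, which opposes apoptosis, was 2.24-fold lower (adjusted p = 0.00444), and the carboxylesterase CES2 2.04-fold lower (adjusted p = 0.00386). The antiproliferative BTG2 was 2.59-fold lower (adjusted p = 0.00873) and the stress cytokine GDF15 2.50-fold lower (adjusted p = 0.0125). The p53-induced noncoding RNA PURPL, outside the list, had 0.0727 and 0.114 RPKM in KO, against 3.30 and 2.803 RPKM in WT (log2 difference −4.03 ± 0.44, adjusted p = 0.00466). Among 29 apoptosis regulators, a list that shares several of these genes, 9 were lower and 1 higher.

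The p53 targets called lower numbered 14, 4, 4 and 17 with 1 library left out, with medians of −0.40, −0.36, −0.39 and −0.39. CDKN1A, TNFRSF10D, CES2, BCL2L1 and PURPL were stable to each omission. MDM2, FAS, BTG2 and GDF15 each lost their call without KO clone 69 and without WT clone 15, and MDM2 also lost it with no filter on low values (adjusted p = 0.0573).

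Ribosomal protein genes held few calls. Of 47 large-subunit genes 2 were higher and 0 lower (median 0.08), and of 32 small-subunit genes 3 were higher and 0 lower (median 0.17), to be read against 6.70% of all genes. RPLP0, part of the ribosome stalk, had 1506 and 1533 RPKM in KO, against 1137 and 1269 RPKM in WT (log2 difference 0.34, adjusted p = 0.0437). The small-subunit protein RPSA had 1033 and 1051 RPKM in KO, against 812 and 872 RPKM in WT (log2 difference 0.31, adjusted p = 0.0361). RPS3, which lines the entry of the message, had 618 and 630 RPKM in KO, against 454 and 515 RPKM in WT (log2 difference 0.37, adjusted p = 0.0283). These 3 differences were small and near the threshold: the calls of RPLP0 and RPSA ended with any single library left out and that of RPS3 with any but WT clone 54. All 3 ended with no filter and without moderation (adjusted p between 0.0546 and 0.0935).

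The proteins of the 5S particle were not called. RPL5 measured 581 and 621 RPKM in KO, against 549.6 and 553 RPKM in WT (log2 difference 0.12 ± 0.09, adjusted p = 0.41). RPL11 measured 701 and 720.1 RPKM in KO, against 760.5 and 732 RPKM in WT (log2 difference −0.07 ± 0.09, adjusted p = 0.645). RPL23, another ribosomal protein known to bind MDM2, had 1725 and 1731 RPKM in KO, against 1679 and 1670 RPKM in WT (log2 difference 0.05, adjusted p = 0.83). The KO values of RPL5 lay above and those of RPL11 below the WT values, without a call. Ribosomal protein genes have many processed copies, so that how reads were assigned to them is uncertain.

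Of 96 ribosome assembly factors tested, 6 were higher (6.25%) and 1 lower (1.04%), with a median of 0.02. Of all tested genes, 6.70% were higher and 7.65% lower, so the list held no excess of calls. Fibrillarin (FBL), the methyltransferase of C/D snoRNA particles, had 158 and 159 RPKM in KO, against 104 and 114 RPKM in WT (log2 difference 0.54 ± 0.10, adjusted p = 0.015). RRS1, which helps to load the 5S particle onto the pre-ribosome, had 26.7 and 28.2 RPKM in KO, against 17.3 and 17.8 RPKM in WT (log2 difference 0.64 ± 0.11, adjusted p = 0.0145). UBTF, which binds ribosomal DNA for polymerase I, was the 1 gene called of 24 of that machinery (4.17%). It had 29.5 and 29.5 RPKM in KO, against 22.9 and 22.3 RPKM in WT (log2 difference 0.38, adjusted p = 0.0158). In all 3 genes both KO clones were above both WT clones, as in 30.1% of all tested genes.

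On the late path of the 60S subunit, 4 of 22 genes were lower (18.2%, against 7.65% of all genes) and 1 higher (4.55%, against 6.70%). SBDS, which helps to release the anti-association factor EIF6 from the new subunit, measured 81.4 and 80.5 RPKM in the KO clones, against 114 and 108 RPKM in the WT clones (log2 difference −0.46 ± 0.07, adjusted p = 0.00926). ZNF622, a cytoplasmic 60S factor, had 40.6 and 38.3 RPKM in KO, against 66.0 and 56.5 RPKM in WT (log2 difference −0.63 ± 0.11, adjusted p = 0.0127). EIF6 had 189.8 and 202 RPKM in KO, against 180.4 and 198 RPKM in WT (log2 difference 0.05 ± 0.07, adjusted p = 0.708), and its genotypes overlapped. With 1 library left out, 0, 0, 0 and 3 assembly factors were called higher and 2, 0, 0 and 4 60S genes lower. FBL, RRS1 and ZNF622 lost their calls without KO clone 66, KO clone 69 or WT clone 15, SBDS without KO clone 69 or WT clone 15, and UBTF with any single library left out.

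Small nucleolar RNAs had mostly positive estimates and few calls. Of 54 C/D snoRNAs 6 were higher (11.1%) and 0 lower (median 0.44). Of 44 H/ACA snoRNAs 2 were higher (4.55%) and 0 lower (median 0.47), where 6.70% of all tested genes were higher. SNORD73A, a C/D snoRNA, had 9.75 and 10.4 RPKM in KO, against 3.06 and 2.802 RPKM in WT (log2 difference 1.75 ± 0.13, adjusted p = 0.0019) and was stable to each omission. SNORD3B-2, a copy of the U3 snoRNA that guides early cleavage of ribosomal RNA and has near-identical copies elsewhere, had 10.2 and 10.3 RPKM in KO, against 6.33 and 5.81 RPKM in WT (log2 difference 0.75 ± 0.10, adjusted p = 0.00739). Among H/ACA snoRNAs, SNORA21 had 56.6 and 43.4 RPKM in KO, against 17.5 and 27.6 RPKM in WT (adjusted p = 0.0436). SNORA4 had 5.58 and 4.30 RPKM in KO, against 2.59 and 2.31 RPKM in WT (adjusted p = 0.0362). Both H/ACA calls ended with no filter and without moderation (adjusted p 0.0632 to 0.134), and that of SNORA4 with limma-voom (0.174).

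WT clone 15 was lowest in snoRNA level: the H/ACA geometric mean was 9.62 and 9.63 RPKM in KO, against 5.82 and 8.28 RPKM in WT. The H/ACA median with 1 library left out was 0.51, 0.45, 0.24 and 0.78, and 0, 0, 0 and 8 H/ACA and 5, 1, 3 and 6 C/D genes were called higher. WT clone 15 also had the smallest share of signal recognition particle RNA, another short structured RNA, and the part of that share in the snoRNA levels was not tested. Host transcripts of snoRNAs were higher in 6 of 24 cases with 0 lower, and in 1, 0, 1 and 2 with 1 library left out. SNHG7 had 7.58 and 8.41 RPKM in KO, against 4.45 and 4.77 RPKM in WT (adjusted p = 0.00639). SNHG12 had 2.10 and 2.38 RPKM in KO, against 1.02 and 1.31 RPKM in WT (adjusted p = 0.0314).

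Inflammatory genes were lower in KO. Of 25 genes of interleukin 1 and NF-kB signalling, 9 were lower and 0 higher (median −0.48). The cytokine IL1B measured 34.1 and 42.4 RPKM in the KO clones, against 99.1 and 87.6 RPKM in the WT clones (log2 difference −1.29 ± 0.27, adjusted p = 0.0228). The neutrophil chemokine CXCL8 measured 15.7 and 16.8 RPKM in the KO clones, against 74.2 and 89.8 RPKM in the WT clones (log2 difference −2.33 ± 0.54, adjusted p = 0.0317). For both genes the gap between the genotypes exceeded the spread within either. NFKB2, a subunit of the NF-kB factor, had 6.87 and 6.29 RPKM in KO, against 11.96 and 13.2 RPKM in WT (log2 difference −0.92 ± 0.14, adjusted p = 0.00987). The adhesion molecule ICAM1 had 5.58 and 7.29 RPKM in KO, against 11.4 and 12.8 RPKM in WT (log2 difference −0.91 ± 0.13, adjusted p = 0.00811). IL6, another SASP cytokine, had 3 and 2 reads in KO and 6 and 9 reads in WT and was not tested.

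Of 42 SASP genes, a list that shares members with that of NF-kB, 11 were lower and 3 higher (median −0.24). The tissue plasminogen activator PLAT had 589 and 479.7 RPKM in KO, against 1229 and 1385 RPKM in WT (log2 difference −1.30 ± 0.11, adjusted p = 0.00301). The stromelysin MMP3 had 42.2 and 23.4 RPKM in KO, against 100.1 and 128 RPKM in WT (log2 difference −1.85 ± 0.26, adjusted p = 0.00878). TGFB2, a ligand of the TGF-beta family, had 0.139 and 0.0434 RPKM in KO, against 1.29 and 0.613 RPKM in WT (log2 difference −2.43, adjusted p = 0.0144). In these 3 genes both KO clones were below both WT clones, as in 31.2% of all tested genes. The growth factor AREG, a ligand of the EGF receptor, went the other way with 83.6 and 86.5 RPKM in KO, against 26.3 and 39.6 RPKM in WT (log2 difference 1.40 ± 0.19, adjusted p = 0.00739). The protease inhibitor TIMP1 was also higher, with 215 and 218 RPKM in KO, against 178 and 169.7 RPKM in WT (log2 difference 0.32, adjusted p = 0.0436).

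Several genes often read as marks of senescence were not called. The collagenase MMP1 had 1757 and 1937 RPKM in KO, against 1986 and 2319 RPKM in WT (adjusted p = 0.706). The binding protein IGFBP5 had 10.6 and 13.2 RPKM in KO, against 7.81 and 5.04 RPKM in WT (adjusted p = 0.0819), with the KO clones above the WT clones. GLB1, the gene of senescence-associated beta-galactosidase, had 19.7 and 19.7 RPKM in KO, against 22.3 and 23.0 RPKM in WT (log2 difference −0.20, adjusted p = 0.132).

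NF-kB genes called lower with 1 library left out numbered 4, 1, 1 and 2 (medians −0.56, −0.48, −0.51 and −0.53) and SASP genes 7, 3, 4 and 8 (medians −0.29, −0.26, −0.30 and −0.17). PLAT, MMP3 and ICAM1 were stable to each omission. The calls of IL1B and CXCL8 ended with any single library left out, with no filter (adjusted p = 0.0774 and 0.102) and without moderation (0.0507 and 0.0626), and that of CXCL8 with a pseudocount of 0.01 (0.105). The TIMP1 call ended without any 1 of the 4 libraries with 4-OHT (adjusted p 0.118 to 0.179), with library size scaling (0.0664), with no filter (0.0855) and without moderation (0.0978). The TGFB2 call ended without KO clone 69 (0.0994), without WT clone 15 (0.0821), with no filter (0.0532) and with limma-voom (0.0512).

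Genes that read out RAS signalling went both ways. HRAS, whose reads can come from the construct as well as the endogenous gene, measured 363 and 334 RPKM in the KO clones, against 279 and 305 RPKM in the WT clones (log2 difference 0.26 ± 0.08, adjusted p = 0.085) and was not called. Of 27 known output genes of the RAS-MAPK cascade, 4 were higher and 7 lower (median −0.11). FOS, a subunit of the AP-1 transcription factor, measured 47.4 and 41.2 RPKM in the KO clones, against 12.3 and 10.7 RPKM in the WT clones (log2 difference 1.93 ± 0.16, adjusted p = 0.00282) and was stable to each omission. JUN, its partner, had 44.2 and 42.7 RPKM in KO, against 24.7 and 30.0 RPKM in WT (log2 difference 0.68 ± 0.12, adjusted p = 0.0141). The early response factor EGR1 had 5.34 and 4.83 RPKM in KO, against 2.76 and 2.55 RPKM in WT (log2 difference 0.91 ± 0.19, adjusted p = 0.0242). All 3 transcription factors were higher in both KO clones than in either WT clone, as were 30.1% of all tested genes. The AP-1 factor BATF3 was 2.52-fold higher (adjusted p = 0.00949).

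Phosphatases that switch off MAP kinases split. DUSP2 had 1.85 and 1.86 RPKM in KO, against 0.566 and 0.270 RPKM in WT (log2 difference 1.98 ± 0.29, adjusted p = 0.00896). DUSP1 had 61.5 and 54.7 RPKM in KO, against 90.6 and 102 RPKM in WT (log2 difference −0.73 ± 0.09, adjusted p = 0.00574). Of the 24 AP-1 and immediate early genes 4 were higher and 2 lower. With 1 library left out 2, 1, 2 and 4 of these were higher, and 1, 0, 1 and 3 RAS-MAPK genes were lower. EGR1 lost its call with any single library left out and with no filter (adjusted p = 0.0779). JUN lost its call without KO clone 66, KO clone 69 or WT clone 15, and BATF3, DUSP1 and DUSP2 lost theirs without KO clone 69.

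Contractile genes, which actin and serum response factor control in fibroblasts, had 10 of 28 members lower and 1 higher (median −0.36). Transgelin (TAGLN), an actin-binding protein, measured 77.6 and 60.4 RPKM in KO, against 136 and 155 RPKM in WT (log2 difference −1.09 ± 0.14, adjusted p = 0.00737). The myosin light chain MYL9 had 21.6 and 15.8 RPKM in KO, against 40.7 and 39.7 RPKM in WT (log2 difference −1.12 ± 0.15, adjusted p = 0.00748). Tropomyosin 1 (TPM1) had 87.5 and 79.8 RPKM in KO, against 133 and 141 RPKM in WT (log2 difference −0.71 ± 0.09, adjusted p = 0.00688). In all 3 genes KO clone 69 was the lowest library. The nonmuscle myosin MYH10 was the member that was higher (16.2 and 16.8 RPKM in KO, against 9.51 and 9.48 RPKM in WT; adjusted p = 0.00739).

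Genes read as targets of YAP and TEAD had 6 of 21 members lower and 2 higher. CCN1, a matrix-associated growth regulator, had 43.7 and 45.0 RPKM in KO, against 67.2 and 64.2 RPKM in WT (log2 difference −0.56 ± 0.07, adjusted p = 0.00705). Of 24 integrin and laminin chains 7 were lower and 2 higher. The integrin chain ITGB3, part of a vitronectin receptor, had 2.06 and 1.61 RPKM in KO, against 9.23 and 8.33 RPKM in WT (log2 difference −2.20 ± 0.19, adjusted p = 0.00286) and was stable to each omission. The laminin chain LAMB2 had 33.8 and 31.4 RPKM in KO, against 46.6 and 46.4 RPKM in WT (adjusted p = 0.013). Contractile genes called lower numbered 7, 1, 2 and 7, YAP and TEAD genes 3, 0, 1 and 2 and integrin and laminin chains 2, 1, 2 and 1, again with 1 library left out. TAGLN and TPM1 lost their calls without KO clone 69, and MYL9 without WT clone 15.

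Matrix genes went both ways. Of 34 collagens and crosslinking enzymes 5 were higher (14.7%) and 4 lower (11.8%), and of 37 matrix glycoproteins and proteoglycans 5 were higher (13.5%) and 5 lower (13.5%), where 6.70% of all genes were higher and 7.65% lower. The fibrillar collagen COL3A1 had 130.5 and 123.2 RPKM in KO, against 88.8 and 95.3 RPKM in WT (log2 difference 0.46 ± 0.09, adjusted p = 0.0161). COL5A2, which sets fibril diameter with other chains, had 150.3 and 147 RPKM in KO, against 215 and 201 RPKM in WT (log2 difference −0.48 ± 0.07, adjusted p = 0.00896). The lysyl hydroxylase PLOD2, needed for crosslinks, had 49.99 and 48.3 RPKM in KO, against 96.6 and 83.4 RPKM in WT (log2 difference −0.87 ± 0.09, adjusted p = 0.00404). COL3A1 thus rose in KO while the other two fell. Thrombospondin 2 (THBS2), a matricellular protein, had 53.1 and 52.5 RPKM in KO, against 33.2 and 32.8 RPKM in WT (log2 difference 0.68 ± 0.07, adjusted p = 0.00404). Among 33 proteases and inhibitors, 5 lower and 2 higher, ADAMTS1, which cleaves proteoglycans, had 18.7 and 12.5 RPKM in KO, against 42.6 and 36.4 RPKM in WT (log2 difference −1.36 ± 0.19, adjusted p = 0.00878).

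In the TGF-beta group 9 of 28 genes were lower and 2 higher (median −0.32). The BMP antagonist GREM1 had 0.696 and 0.603 RPKM in KO, against 1.52 and 1.505 RPKM in WT (log2 difference −1.11 ± 0.12, adjusted p = 0.00423). SMURF2, a ubiquitin ligase that acts on the receptors, had 117 and 109 RPKM in KO, against 217 and 212 RPKM in WT (log2 difference −0.93 ± 0.08, adjusted p = 0.00283). The 2 higher genes were the receptor TGFBR1 at 1.53-fold and the activin antagonist FST at 2.38-fold (adjusted p = 0.00955 and 0.025). TGF-beta genes called lower numbered 6, 2, 3 and 5 and collagens called higher 0, 0, 1 and 2 with 1 library left out. PLOD2, THBS2, GREM1 and SMURF2 were stable to each omission.

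Genes of lysosomes and autophagy had 12 of 34 members lower and 2 higher (median −0.20). SQSTM1 (p62), which brings cargo to autophagosomes, measured 148 and 118 RPKM in the KO clones, against 299 and 308 RPKM in the WT clones (log2 difference −1.20 ± 0.10, adjusted p = 0.00301). The autophagosome protein GABARAPL1 had 12.8 and 13.9 RPKM in KO, against 33.7 and 32.0 RPKM in WT (log2 difference −1.30 ± 0.11, adjusted p = 0.00282). Both genes were far lower in the KO clones than in either WT clone, where 31.2% of all tested genes had both KO values lower. The lysosomal beta-glucuronidase GUSB was higher, with 6.96 and 8.03 RPKM in KO, against 3.90 and 3.499 RPKM in WT (log2 difference 1.00 ± 0.10, adjusted p = 0.00404).

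Of 26 NRF2 targets 6 were lower and 3 higher. The NADPH-producing malic enzyme ME1 had 22.5 and 20.4 RPKM in KO, against 45.6 and 44.5 RPKM in WT (log2 difference −1.07, adjusted p = 0.00379). Ferritin light chain FTL, which stores iron, had 2635 and 2209 RPKM in KO, against 4616 and 4105 RPKM in WT (log2 difference −0.85, adjusted p = 0.00959). The higher members were all aldo-keto reductases of 1 gene cluster, near-identical neighbours between which reads may be shared. AKR1C1 had 5.603 and 5.84 RPKM in KO, against 1.19 and 2.29 RPKM in WT (adjusted p = 0.0233). AKR1C2 had 11.1 and 10.2 RPKM in KO, against 1.65 and 2.63 RPKM in WT (adjusted p = 0.00703). AKR1C3 had 8.17 and 11.7 RPKM in KO, against 1.20 and 1.96 RPKM in WT (adjusted p = 0.0458). Lysosomal genes called lower numbered 9, 2, 2 and 5 and NRF2 targets 2, 3, 1 and 3 with 1 library left out. SQSTM1, GABARAPL1, GUSB and ME1 were stable to each omission, and the call of AKR1C3 ended in each of them, with no filter (adjusted p = 0.142), without moderation (0.0833) and with limma-voom (0.0804).

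All 13 mitochondrially encoded messages had negative estimates and 4 were called lower (median −0.32), while of 59 nuclear-encoded genes of the respiratory chain 2 were lower and 0 higher. MT-CO1, a subunit of cytochrome oxidase, had 361 and 326 RPKM in KO, against 674 and 582 RPKM in WT (log2 difference −0.87 ± 0.14, adjusted p = 0.0111). MT-ND4, a subunit of complex I, had 22.3 and 25.0 RPKM in KO, against 33.8 and 29.7 RPKM in WT (log2 difference −0.42 ± 0.09, adjusted p = 0.0242). With a library left out, 1, 0, 0 and 2 mitochondrial messages were called, with medians of −0.26, −0.31, −0.16 and −0.35. The MT-ND4 call ended without any clone but WT clone 54, and also with library size scaling (adjusted p = 0.0503), with the 4 libraries with 4-OHT fitted alone (0.0518), with no filter (0.0676) and without moderation (0.0615).

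Class I antigen presentation genes were higher in 6 of 16 cases and lower in 1. HLA-B measured 414 and 371 RPKM in the KO clones, against 168 and 193 RPKM in the WT clones (log2 difference 1.12 ± 0.12, adjusted p = 0.00404). HLA-F had 5.88 and 7.56 RPKM in KO, against 2.17 and 2.70 RPKM in WT (log2 difference 1.42, adjusted p = 0.00394). In these genes both KO clones were above both WT clones, as in 30.1% of all tested genes. HLA-E, a ligand of natural killer cell receptors, was the member that was lower (111 and 109 RPKM in KO, against 165 and 158 RPKM in WT; log2 difference −0.55, adjusted p = 0.00674). HLA genes are polymorphic and alike in sequence, which can shift reads between them. Class I genes called higher numbered 4, 2, 3 and 5 with 1 library left out. HLA-B and HLA-F were stable to each omission, and HLA-E lost its call without KO clone 69.

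Interferon-stimulated genes held few calls, 2 of 43 higher (4.65%) and 3 lower (6.98%), shares near those of all genes. The RNA sensor DDX58 had 5.46 and 5.52 RPKM in KO, against 9.59 and 9.92 RPKM in WT (adjusted p = 0.0172). The nucleotide kinase CMPK2 had 0.407 and 0.451 RPKM in KO, against 0.0649 and 0.0744 RPKM in WT (adjusted p = 0.00913). Prostaglandin genes were higher in 2 of 14 cases (14.3%, against 6.70% of all genes) and lower in 4 (28.6%, against 7.65%). The higher genes were the 2 cyclooxygenases: PTGS2 had 34.2 and 49.9 RPKM in KO, against 11.7 and 15.7 RPKM in WT (adjusted p = 0.0106). PTGS1 had 23.4 and 24.5 RPKM in KO, against 14.1 and 13.2 RPKM in WT (adjusted p = 0.00896). DDX58 lost its call with any single library left out and with no filter (adjusted p = 0.0584). CMPK2 and PTGS2 lost theirs without KO clone 69 or WT clone 15, and PTGS1 without KO clone 69. Growth factors and receptors had 8 of 35 members lower and 3 higher. The lymphatic growth factor VEGFC had 42.8 and 37.2 RPKM in KO, against 67.1 and 65.2 RPKM in WT (log2 difference −0.73, adjusted p = 0.00559) and was stable to each omission.

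Stress and metabolic groups held calls in both directions. Integrated stress response genes had 5 of 35 members lower (14.3%, against 7.65% of all genes) and 1 higher. The phosphatase subunit PPP1R15A, which ends the response, had 36.1 and 35.6 RPKM in KO, against 55.0 and 52.1 RPKM in WT (log2 difference −0.58, adjusted p = 0.00901). The secreted glycoprotein STC2 had 20.9 and 19.7 RPKM in KO, against 38.9 and 34.2 RPKM in WT (log2 difference −0.84, adjusted p = 0.00703). The serine synthesis enzyme PHGDH had 14.9 and 28.2 RPKM in KO, against 8.53 and 9.91 RPKM in WT (log2 difference 1.15, adjusted p = 0.0319). PHGDH differed between the KO clones, and its call ended without KO clone 69 or either WT clone, with no filter (adjusted p = 0.101), without moderation (0.0643), with limma-voom (0.0603) and with the 4 libraries with 4-OHT fitted alone (0.0551). The median of the stress response list was 0.10, −0.34, −0.04 and −0.20 with 1 library left out, so that its sign depended on which KO clone was kept.

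Of 31 glycolysis and hypoxia genes 4 were lower (12.9%, against 7.65% of all genes) and 2 higher. The glucose transporter SLC2A1 had 63.9 and 59.5 RPKM in KO, against 100.2 and 92.9 RPKM in WT (log2 difference −0.65, adjusted p = 0.013). The hypoxia-induced NDRG1 had 9.97 and 11.4 RPKM in KO, against 4.55 and 6.80 RPKM in WT (log2 difference 0.93, adjusted p = 0.021). Of 32 cholesterol genes 4 were higher (12.5%, against 6.70% of all genes) and 2 lower. INSIG1, a sterol sensor, had 49.8 and 59.6 RPKM in KO, against 34.4 and 33.6 RPKM in WT (log2 difference 0.68, adjusted p = 0.0168). The calls of SLC2A1, NDRG1 and INSIG1 each ended without KO clone 69 or WT clone 15. Those of NDRG1 and INSIG1 also ended with no filter (adjusted p = 0.071 and 0.0566). With no filter, 0 glycolysis and hypoxia genes were called higher and 3 lower, and 0 cholesterol genes either way. None of 33 proteasome and 6 metallothionein genes was called in the limma fit of all 8 libraries on log2 values. Limma-voom called 1 lower in each list, and the fit of the 4 libraries with 4-OHT alone and that without WT clone 54 each called 1 metallothionein lower.

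Genes with the largest differences lay mostly outside these groups. PRSS3, a trypsinogen with close relatives in the genome between which reads may be shared, measured 50.99 and 41.0 RPKM in the KO clones, against 0.104 and 0.199 RPKM in the WT clones (log2 difference 7.54 ± 0.36, adjusted p = 0.000488). The binding protein IGFBP2 had 28.5 and 35.4 RPKM in KO, against 0.731 and 0.0644 RPKM in WT (log2 difference 6.43 ± 1.08, adjusted p = 0.0124). Both were at a low level in WT. IGFBP2 also differed between the WT clones, and its call ended without KO clone 66 or KO clone 69. The ephrin receptor EPHB6 had 1.65 and 1.63 RPKM in KO, against 0.139 and 0.125 RPKM in WT (log2 difference 2.91, adjusted p = 0.0019). The elongation factor EEF1A2 had 3.73 and 2.99 RPKM in KO, against 0.381 and 0.103 RPKM in WT (log2 difference 3.46, adjusted p = 0.0188). The neurotensin receptor NTSR1 had 2.11 and 1.51 RPKM in KO, against 0.240 and 0.132 RPKM in WT (log2 difference 2.75, adjusted p = 0.00394). CDH13, an adhesion molecule of the cadherin family whose KO clones differed from each other, had 0.810 and 1.55 RPKM in KO, against 0.111 and 0.133 RPKM in WT (log2 difference 2.47, adjusted p = 0.00688). The transporter SLC6A17 was 6.44-fold higher, the lipid kinase PIK3CG 4.67-fold, the retinol receptor STRA6 5.29-fold and the division-associated CDCA7 4.32-fold (adjusted p = 0.00585, 0.00932, 0.0393 and 0.0227). The call of CDCA7 ended with no filter (adjusted p = 0.0751) and that of PIK3CG with a pseudocount of 0.01 (0.0575). AKR1C2, AKR1C3, HIST1H2AJ, HIST1H2BM and HIST2H3PS2 (33.7 and 33.8 RPKM in KO, against 6.09 and 11.3 RPKM in WT; adjusted p = 0.00878) complete the 15 largest on the higher side. PRSS3, EPHB6, NTSR1 and CDH13 were stable to each omission, while the call of STRA6 ended with no filter (adjusted p = 0.124), without moderation (0.0701), with limma-voom (0.0702) and in 3 of the 4 omissions, and that of EEF1A2 with no filter (0.0676), with limma-voom (0.0886) and in all 4.

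On the lower side, the adhesion receptor ADGRE1 had 0 and 1 read in KO and 231 and 183 reads in WT. The ratio of reads in WT over KO was 401, with a 95% exact counting interval of 71.6 to 15900 (adjusted p = 0.000417). The cancer-testis antigen MAGEC2 had 0 and 0 reads in KO and 35 and 223 reads in WT, at least 41.7-fold lower against the floor of 3 reads per library (adjusted p = 0.0243). These 2 genes were close to silent in KO. The zinc finger gene ZNF426 had 0.140 and 0.0896 RPKM in KO, against 1.96 and 1.71 RPKM in WT (log2 difference −3.18, adjusted p = 0.0019). The redox protein NXN had 3.09 and 3.41 RPKM in KO, against 17.6 and 20.7 RPKM in WT (log2 difference −2.52, adjusted p = 0.00867). QPRT, an enzyme of NAD synthesis, had 2.92 and 2.82 RPKM in KO, against 18.2 and 14.03 RPKM in WT (log2 difference −2.44, adjusted p = 0.00202). In each of these the KO clones were close to each other and far below WT. Netrin 4 (NTN4), a basement membrane protein, had 4.10 and 4.71 RPKM in KO, against 19.6 and 22.7 RPKM in WT (log2 difference −2.24, adjusted p = 0.00282). WFDC1, a secreted protein of the whey acidic protein family, had 2.402 and 2.799 RPKM in KO, against 15.6 and 12.1 RPKM in WT (log2 difference −2.36, adjusted p = 0.00121). TMEM40, TP73-AS1, KCTD4, KIAA1671 and PTCHD4 were 9.47-fold, 8.24-fold, 6.33-fold, 5.43-fold and 5.09-fold lower (adjusted p = 0.0114, 0.00507, 0.00555, 0.0264 and 0.0214), and PURPL, TGFB2 and CXCL8 were given above. The calls of KIAA1671 and PTCHD4 ended with no filter (adjusted p = 0.0886 and 0.0727) and that of TMEM40 with a pseudocount of 0.01 (0.105). ADGRE1, ZNF426, QPRT, NTN4 and WFDC1 were stable to each omission. The MAGEC2 call ended with limma-voom (adjusted p = 0.29), with a pseudocount of 1 (0.121), with no filter (0.0852), without moderation (0.0506) and in 3 of the 4 omissions. Some of these genes set the clones apart without 4-OHT too: 5 of the 15 higher genes were also called higher without it, and 7 of the 15 lower genes were also called lower.

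Most of these differences were not called in the same clones without 4-OHT. There, 1046 genes were called between KO and WT (6.32%), 427 higher (2.58%) and 619 lower (3.74%). Of the 1109 genes higher with 4-OHT, 83 were also higher without it, 830 were not called and 196 were lower. Of the 1266 genes lower with 4-OHT, 123 were also lower without it, 1109 were not called and 34 were higher. The difference between the KO minus WT values with and without 4-OHT, tested as an interaction, was called for 1230 genes (7.44%), 721 positive (4.36%) and 509 negative (3.08%). It was not called for 593 of the 1109 genes higher with 4-OHT and 908 of the 1266 lower, so that for these genes a difference between the conditions was not shown, whether or not they were called without 4-OHT.

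Division genes changed sign between the conditions. Without 4-OHT the medians were −1.24 for mitotic genes, −0.85 for DNA replication and −0.72 for histones, with 64, 30 and 22 members called lower in KO and 0 higher. The interaction was called positive for all 71 mitotic genes, 47 of 56 replication genes and 61 of 63 histones, where 4.36% of all genes were called positive. MKI67 without 4-OHT measured 2.31 and 2.04 RPKM in KO, against 5.02 and 6.90 RPKM in WT, and the difference between conditions was 2.59 on the log2 scale (adjusted p = 0.0053). HIST1H2AJ without 4-OHT measured 64.8 and 58.6 RPKM in KO, against 105 and 105 RPKM in WT, a difference between conditions of 2.98 (adjusted p = 0.00118). The mean level of mitotic genes was 3.44 and 3.34 RPKM in KO without 4-OHT, against 6.81 and 9.04 RPKM in WT without it.

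**Figure D3:**
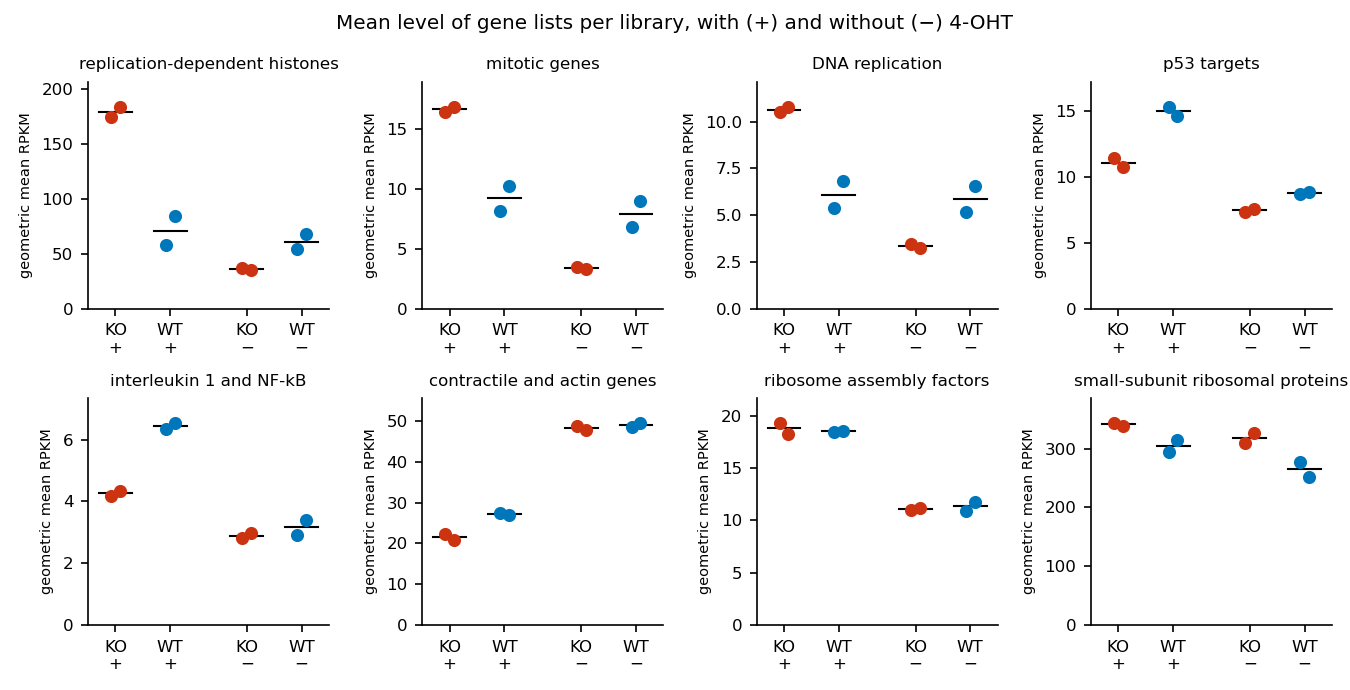
Geometric mean level (RPKM) of 8 gene lists in each library with (+) and without (−) 4-OHT, KO clones in red and WT clones in blue, bars at the mean of the 2 clones. For the 3 division lists KO is above WT with 4-OHT and below WT without it, and for p53 targets KO is below WT in both conditions.

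Targets of p53 differed between genotypes in the same direction in both conditions. Without 4-OHT 11 of 51 were lower and 0 higher (median −0.21), and the interaction was called for 4 members, 3 negative and 1 positive, a share near the 7.44% of all genes. CDKN1A without 4-OHT had 72.9 and 81.8 RPKM in KO, against 132 and 161 RPKM in WT, and its KO minus WT values of −1.28 with and −0.91 without 4-OHT differed by −0.37 (adjusted p = 0.329). Mitochondrially encoded messages turned the other way: 6 of 13 were higher in KO without 4-OHT (median 0.55), and 9 had a negative interaction. MT-CO1 without 4-OHT had 868 and 886 RPKM in KO, against 649 and 489 RPKM in WT. Lysosomal genes had 3 members higher and 0 lower without 4-OHT, with 8 negative interactions and 1 positive. For FOS the values were 190.3 and 194 RPKM in KO, against 218 and 153 RPKM in WT without 4-OHT, and its interaction was 1.86 (adjusted p = 0.00703).

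**Figure D4:**
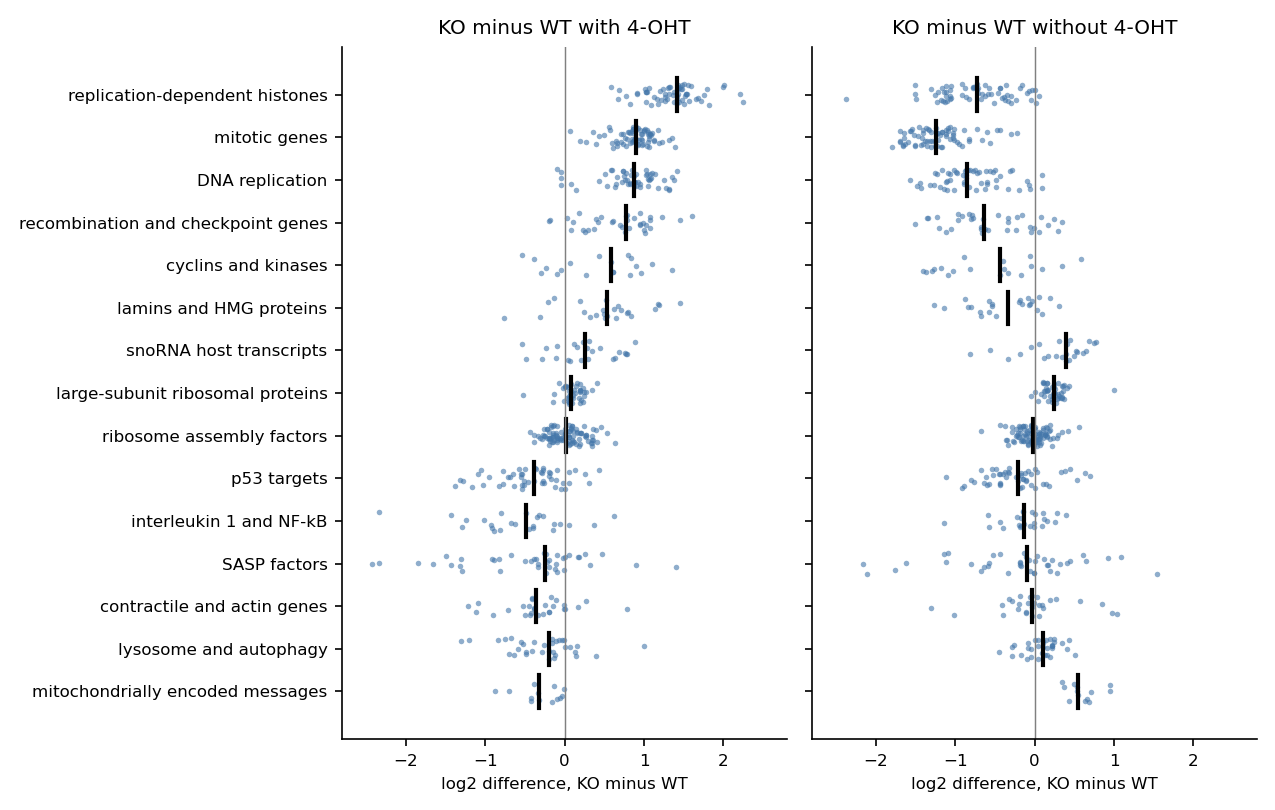
Log2 difference KO minus WT of each member (points) of 15 gene lists with 4-OHT (left) and without it (right), with black bars at list medians. Division lists lie right of 0 with 4-OHT and left of 0 without it, p53 targets lie left of 0 in both, and 1 SASP gene, IGFBP2, lies beyond the axis in each panel.

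**Figure D5:**
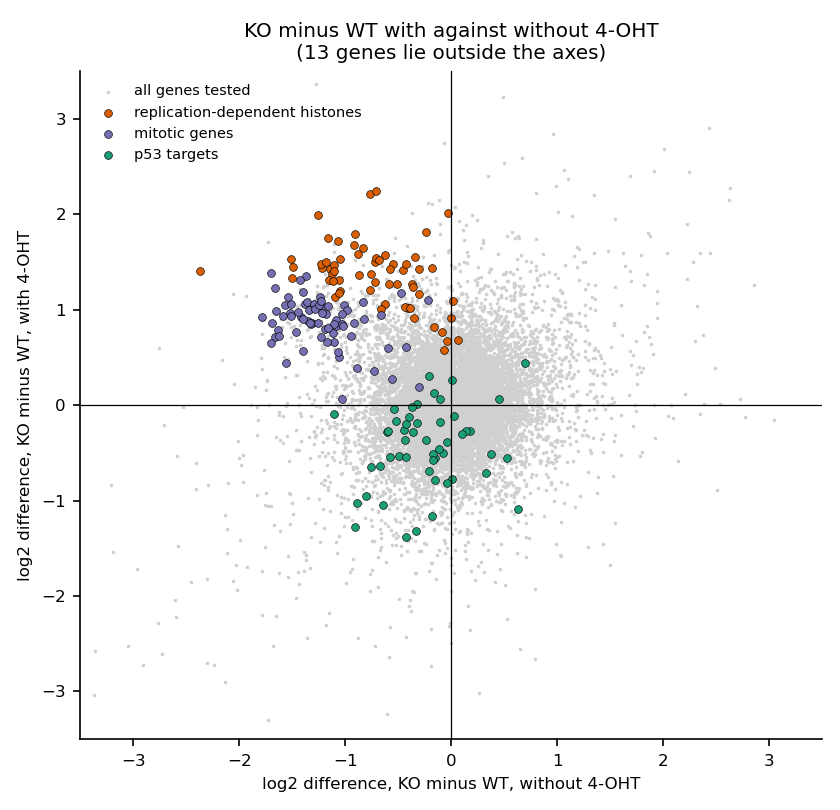
Log2 difference KO minus WT without 4-OHT (x axis) against the same with 4-OHT (y axis), 1 point per gene, with 13 genes outside the axes. Histones (orange) and mitotic genes (purple) fill the upper left, and p53 targets (green) lie mostly below 0 on the y axis.

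By position, the share called higher per chromosome was highest on chromosome 6 (11.5%), which holds the largest histone cluster, and was 6.42% there once 48 histone genes were left out. In windows of 51 neighbouring tested genes the highest median was 1.27 in that cluster (chr6:26017085-27811300). The next highest outside it was 0.39 on chromosome 19 (chr19:19561707-23929287), and the lowest was −0.26 on chromosome 2 (chr2:108786757-113962596). Of 15 tested genes around SNORA13, 1 was lower (6.67%, near the 7.65% of all genes) and 0 higher. This was the kinase CAMK4, at 0.186 and 0.245 RPKM in KO, against 0.702 and 1.99 RPKM in WT (log2 difference −2.04, adjusted p = 0.0325), whose call ended without KO clone 66, KO clone 69 or WT clone 54, with a pseudocount of 1 (adjusted p = 0.0625), with no filter (0.108), without moderation (0.0551) and with limma-voom (0.137). EPB41L4A, the gene on the opposite strand that spans SNORA13, had 2 and 7 reads in KO and 2 and 0 reads in WT and was not tested.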

How the data were processed

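Total RNA was sequenced with a stranded kit in 8 libraries of BJ-HRAS clones, 2 clones in each of 4 groups. The authors deposited 1 table of RPKM values per gene, made with STAR, featureCounts and edgeR on GRCh38, per the submitters' processing notes, with versions not given in the sources used here. In its header a bare clone number was read as with 4-OHT and a number with a minus sign as without, after the clone labels and their sign. Gene lengths of GENCODE release 29, listed for 51420 genes, gave the reads behind the deposited RPKM: 100% of the nonzero values of these genes came out whole within 0.1 reads. For 564 genes the length of another transcript version was used, and for 6112 it was inferred from the steps of their values, which makes them whole by construction. Libraries held 22.1 to 24.9 M reads each. The 45 copies of genes in the Y pseudoautosomal region were left out. KO and WT are clones of 1 line. The p-values rest on the spread between the 2 clones of a group, pooled over all 4 groups and moderated over genes. They therefore also use the libraries without 4-OHT. The main fit takes the 8 libraries as independent, although each clone enters with and without 4-OHT.

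From the deposited values, TMM factors (0.9402 to 1.035) were computed and applied, and log2(RPKM + 0.1) was fitted with limma 3.58.1 in R 4.3.3 (4 group means, 4 residual degrees of freedom, intensity trend, robust moderation). Genes needed 10 reads at the median library size in at least 2 libraries and 15 reads in all. P-values are two-sided and adjusted by Benjamini-Hochberg over the 16542 genes. A log2 difference on this scale understates changes of low genes. KO minus WT was fitted with 4-OHT, without it, and as the difference between these (interaction). Intervals and floors cover counting error only. The procedure was tested on simulated data with known changes.

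Named genes were 22 chosen for the pathway, the 15 largest called differences each way among non-overlapping genes of at least 5 CPM, and per list up to 4 members by p, 2 by size and 3 against the list's direction, of which the text gives a part, and some are not reported here. The gene lists and their members were chosen with earlier results of these data known. Alternatives covered scaling, pseudocount, filter, samples in the fit, moderation, limma-voom on the recovered reads, a clone block and each library left out.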

Additional observations from a re-analysis of the deposited data

Results flagged for a closer look

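For the genes below, KO minus WT with 4-OHT differed from KO minus WT without it by the interaction test of the same limma fit (adjusted p under 0.05 over 16542 genes, of which 7.44% were called). Values are the log2 difference with 4-OHT minus that without it, so that a positive value means a KO minus WT value that is greater with 4-OHT.

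Division genes were positive. The mitotic genes had 2.59 for MKI67, 1.32 for ASPM, 2.90 for KIF20A, 1.64 for SMC4, 2.72 for CCNA2, 1.92 for CDK1 and 1.37 for CDKN3. Replication and recombination genes had 1.71 for RFC3, 1.91 for RFC4, 1.91 for TIMELESS, 2.57 for ASF1B, 2.51 for RRM2, 2.72 for MND1, 2.05 for XRCC3 and 1.87 for H2AFX. The regulators had 1.86 for E2F1, 1.26 for RBL1 and 1.06 for CDKN2C. Nuclear proteins had 2.60 for LMNB1, 0.74 for HMGB1, 2.46 for HMGB2, 1.42 for HMGN2 and 0.95 for RCC1. Histones had 2.98 for HIST1H2AJ, 2.96 for HIST1H2BM, 1.88 for HIST1H1A, 2.03 for HIST2H2BF and 2.04 for HIST2H3PS2.

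The ribosome and snoRNA genes had 0.81 for RRS1, 0.59 for FBL, 0.62 for UBTF, 1.15 for SNORD73A, 1.25 for SNORD3B-2 and −0.61 for SBDS. Among RAS and AP-1 genes the values were 0.55 for HRAS, 1.86 for FOS, 0.78 for JUN, 1.25 for EGR1 and −0.99 for DUSP1. HRAS, not called between KO and WT with 4-OHT, thus differed between the conditions. Secreted and matrix genes had 0.49 for TIMP1, 1.80 for FST, 0.96 for COL3A1, 0.77 for THBS2, −2.26 for MMP3, −1.98 for ADAMTS1, −1.07 for PLOD2, −1.59 for GREM1 and −0.84 for SMURF2. Contractile and YAP genes had −1.03 for TAGLN, −1.01 for MYL9, −0.68 for TPM1 and −0.50 for CCN1.

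The lysosomal and NRF2 genes had −1.02 for SQSTM1, −1.64 for GABARAPL1, 0.81 for GUSB, −0.65 for ME1 and −0.78 for FTL, and mitochondrial messages −1.51 for MT-CO1 and −0.96 for MT-ND4. Single members of other groups had −0.98 for BCL2L1, −0.83 for HLA-E, −1.38 for STC2, 2.42 for PHGDH, 1.23 for NDRG1, 0.83 for INSIG1, 0.95 for ACD and −0.62 for TERF2IP. Of the genes with the largest differences, the values were 3.96 for PRSS3, 2.82 for NTSR1, −3.45 for KCTD4, −1.56 for QPRT, −2.53 for WFDC1 and −2.77 for NTN4. WT without 4-OHT and KO without 4-OHT enter every value, so that these genes share the same 8 libraries and are not independent of each other.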

How the results depend on the processing

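The counts of genes higher, lower and with a called difference between conditions (1109, 1266 and 1230) stayed within 1.5 times under library size scaling, median-of-ratios factors, scaling without signal recognition particle RNA, pseudocounts of 1 and 0.01, a filter of 50 reads and limma-voom. The counts higher and lower also did with the 4 libraries with 4-OHT fitted alone, which gives no difference between conditions. Library size scaling gave 1076 higher and 1066 lower. With no filter on low values they were 449, 545 and 437, and without trend and robust moderation 763, 757 and 672. Leaving out 1 of the 8 libraries gave 63 to 1413 higher, 105 to 1578 lower and 282 to 2123 differences between conditions. The cause of these changes was not tested. With the clone as replicate block, the counts were 1126, 1273 and 1760. KO and WT share no clone, so the block pairs only the conditions of 1 clone, whose deviations correlated at 0.00535 for KO and 0.309 for WT. No paired analysis of KO against WT was possible because they share no clone number.

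All 140 called genes named in the text kept their sign under each alternative that gave them a value. For genes whose KO and WT values do not overlap, leaving out 1 library could hardly reverse the sign, so this adds no support. Uncalled genes near 0 changed sign: with 1 library left out EIF6 ranged from −0.00 to 0.13 and CDKN2B from −0.23 to 0.17, with 0.00 without KO clone 66. Of the 140 calls, 138 held with library size scaling, 137 with pseudocount 1, 136 with pseudocount 0.01, 132 with limma-voom, 120 without moderation and 105 with no filter. With 2 clones per group, differences in genes of a few reads were not detectable at this depth.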

Other observations

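Axon guidance genes, several of which also steer vessels and fibroblasts, had 6 of 35 members lower (17.1%) and 5 higher (14.3%) with 4-OHT. Of all tested genes, 7.65% were lower and 6.70% higher. SEMA3C, a secreted semaphorin, had 15.2 and 13.3 RPKM in KO, against 33.3 and 25.7 RPKM in WT (log2 difference −1.03, adjusted p = 0.0131). SEMA6D, a membrane semaphorin, had 6.60 and 4.33 RPKM in KO, against 13.0 and 12.1 RPKM in WT (log2 difference −1.21, adjusted p = 0.0123). The ephrin ligand EFNB2 was higher, at 10.4 and 13.6 RPKM in KO, against 6.73 and 6.24 RPKM in WT (log2 difference 0.86, adjusted p = 0.0138). All 3 calls ended without KO clone 69 and without WT clone 15.

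Of 14 retinoid genes 3 were higher (21.4%, against 6.70% of all genes) and 1 lower (7.14%, against 7.65%). The lower was the retinoic acid receptor RARB at 4.83 and 3.03 RPKM in KO, against 10.8 and 8.37 RPKM in WT (log2 difference −1.29, adjusted p = 0.014). HOX genes, which hold positional identity in skin fibroblasts, were lower in 2 of 16 cases, with HOXA11 at 16.7 and 15.2 RPKM in KO, against 23.9 and 22.5 RPKM in WT (log2 difference −0.53, adjusted p = 0.0245). Of 8 telomerase and shelterin genes, ACD (TPP1) was higher and TERF2IP (RAP1) lower, 12.5% each way. ACD had 14.9 and 16.0 RPKM in KO, against 8.91 and 10.7 RPKM in WT (log2 difference 0.66, adjusted p = 0.0131). TERF2IP had 14.1 and 15.2 RPKM in KO, against 21.0 and 18.7 RPKM in WT (log2 difference −0.44, adjusted p = 0.0245). HOXA11 lost its call with any single library left out, and ACD and TERF2IP without KO clone 66, KO clone 69 or WT clone 15.

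By gene class, protein-coding genes were higher in 7.77% and lower in 9.26% of 12709 cases, lincRNAs in 2.86% and 3.92% of 664, and processed pseudogenes in 2.29% and 0.857% of 1050. Small nuclear RNAs were higher in 6 of 33 cases (18.2%) and lower in 0, with a median log2 difference of 0.67. MicroRNAs were higher in 3 of 30 (10%) and lower in 0. Chromosomes 1, 6 and 8 had the highest shares of genes higher in KO (8.66%, 11.5% and 9.59%).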
